A study of Mus musculus with 15 samples.

Results

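Zfp900 to Zfp999 are mouse genes numbered in sequence as zinc finger proteins, and they are described here across CD4+ T cells and thymocytes that carried or lacked a Ras gene. A gene was a member if the symbol annotated to a probe set was Zfp followed by a 3-digit number that begins with 9. On the arrays, 38 genes met this rule, of 18194 genes measured by probe sets with 1 annotated gene. In CD4+ T cells they were read by 63 of 45101 probe sets, and in thymocytes 17 of the genes were read by 21 of 22690 probe sets. The series number is a label of the gene catalogue and not a functional class, and the range of numbers was chosen by measured values, namely the differences between single CD4+ T cell arrays and between thymocyte arrays. The values by array, the stimulated N-ras KO minus stimulated WT difference and the thymocyte differences are therefore given as descriptions with no test.

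Most mouse genes numbered in this way encode proteins with a row of C2H2 zinc fingers, which bind DNA, and many of them also carry a KRAB domain. The KRAB domain recruits Trim28, a corepressor that brings histone methyltransferases such as Setdb1 and heterochromatin proteins to the bound DNA. Many such proteins silence endogenous retroviruses and other transposable elements, and their genes lie in clusters of close paralogs that arose by local duplication.

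RNA was taken from CD4+ T cells sorted from spleens and from whole thymocytes and was hybridized to Affymetrix expression arrays. All mice were on the 129/SJ background, and the knockouts of N-ras (N-ras KO) and of H-ras (H-ras KO) were carried in the germline, and their WT comparators were littermates from crosses of heterozygous mice. The labels give an age of 6 to 20 weeks for all mice, and the methods give 6 weeks for the mice that supplied thymocytes. The CD4+ T cells fell into 4 groups of 3 arrays. These were N-ras KO cells cultured overnight with antibodies against CD3 and CD28 at 1 µg/ml (a low-level TCR stimulus), N-ras KO cells cultured without them, WT cells with them and WT cells without them. The thymocytes came from 1 mouse each of 3 genotypes, of which 1 lacked N-ras, 1 lacked H-ras and 1 was WT. Arrays of 1 genotype were numbered 1 to 3 in both conditions. The methods state both that sorted cells were split between the conditions and that each condition used its own mouse, so the arrays with 1 number and genotype may or may not come from 1 mouse.

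The deposited values were log2 expression centred by the authors, so that 0 was the median of the 3 unstimulated arrays of the genotype in CD4+ T cells and the median of the 3 arrays in thymocytes. They hold differences and no brightness, so whether a probe set lay above background cannot be judged. It cannot be read from them whether a gene was expressed at all, whether the defining markers of CD4+ T cells were present, or whether unstimulated N-ras KO and WT cells differed. The targeted gene did not sort the arrays by their labels. On 3 Nras probe sets the arrays labelled N-ras KO 3 were higher than the other N-ras KO arrays by 1.63, 1.19 and 1.93 on the log2 scale (mean of both conditions), and the arrays labelled WT 1 were lower than the other WT arrays, at -0.97, -1.51 and -2.91. Genotypes are therefore named below as the arrays were labelled. In thymocytes the N-ras KO array was the lowest on all 3 probe sets, at -1.81, -2.44 and -2.38. In the stimulation list of 14 genes, which holds activation genes such as Il2ra and Egr2, 8 genes passed an unadjusted p of 0.05 and 1.5-fold upwards in N-ras KO cells and 8 in WT cells (limma). They did so on 10 of 25 probe sets in each genotype, where 1.16% of all probe sets passed upwards in N-ras KO cells and 0.53% in WT cells.

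Some of the sequence that lies before these genes is shown first, because a few pairs of members are near copies of each other before their starts. Promoters of 35 of the 38 genes were found in RefSeq (GRCm38.p6), 42 in all, each reaching from 250 bases before an annotated start to 50 bases after it. The word CCAAT, on either strand, was in 30 of them (71.4%), against 37.4% of all 32851 mouse promoters of the same length and 41.7% of those of other numbered Zfp genes. The longer word CCAATCAG, which contains CCAAT and was picked after the members' promoters had been searched for frequent words, was in 15 (35.7%), against 4.1% of all promoters and 10.1% of those of other numbered Zfp genes. All 15 matches lay before the start and on the strand of the gene, at a median of -70 bases. The word TATAAA was in 0 of the 42, against 13.6% of all promoters and 7.99% of those of other numbered Zfp genes. The 250 bases before the start are given for Zfp958 and Zfp932, which had among the largest differences between arrays, and for Zfp937, which had small ones. Capitals mark matches to CCAAT or CCAATCAG on either strand. The Zfp958 stretch is chr8:4612920-4613169 on the plus strand, that of Zfp932 is chr5:109996260-109996509 on the plus strand, and that of Zfp937 is chr2:150217849-150218098 on the plus strand.
Zfp958: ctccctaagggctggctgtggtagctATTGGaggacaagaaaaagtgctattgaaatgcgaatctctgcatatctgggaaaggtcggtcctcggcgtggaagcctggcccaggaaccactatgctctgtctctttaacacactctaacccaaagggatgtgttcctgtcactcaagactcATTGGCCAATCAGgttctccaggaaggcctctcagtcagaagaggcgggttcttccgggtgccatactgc
Zfp932: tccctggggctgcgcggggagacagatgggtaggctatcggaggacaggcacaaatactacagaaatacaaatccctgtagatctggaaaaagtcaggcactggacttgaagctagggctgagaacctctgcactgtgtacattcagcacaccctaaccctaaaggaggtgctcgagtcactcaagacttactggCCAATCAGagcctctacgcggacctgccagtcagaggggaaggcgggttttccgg
Zfp937: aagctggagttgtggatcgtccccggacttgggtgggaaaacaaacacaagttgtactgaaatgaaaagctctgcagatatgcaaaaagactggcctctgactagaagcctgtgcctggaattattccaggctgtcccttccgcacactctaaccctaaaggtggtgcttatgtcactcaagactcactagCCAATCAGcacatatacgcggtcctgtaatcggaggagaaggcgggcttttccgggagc
The best ungapped overlap of Zfp932 with Zfp958 had 154 of 240 bases in common (64.2%), and that of Zfp932 with Zfp937 had 154 of 246 (62.6%), although the 3 genes lie on 3 chromosomes.

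The closest pair among the members was Zfp942 and Zfp944 on chromosome 17, which shared 224 of 225 overlapping bases before their starts (99.6%). Their stretches are chr17:21962490-21962714 for Zfp942 and chr17:22361401-22361625 for Zfp944, both on the minus strand, and the capital in each marks the 1 base at which they differ.
Zfp942: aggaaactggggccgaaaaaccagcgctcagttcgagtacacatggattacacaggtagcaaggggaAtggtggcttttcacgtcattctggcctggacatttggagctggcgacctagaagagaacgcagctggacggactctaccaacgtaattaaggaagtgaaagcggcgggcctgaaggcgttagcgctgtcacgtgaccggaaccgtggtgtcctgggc
Zfp944: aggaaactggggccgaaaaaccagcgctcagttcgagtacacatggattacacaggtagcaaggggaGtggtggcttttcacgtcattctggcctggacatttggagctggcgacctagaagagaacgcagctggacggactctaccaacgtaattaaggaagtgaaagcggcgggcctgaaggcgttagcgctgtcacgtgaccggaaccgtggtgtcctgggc
Of 595 pairs of members, 3 shared over 80% of their overlapping bases, each on 1 chromosome, the others being Zfp936 with Zfp975 (89.1%) and Zfp979 with Zfp980 (83.2%). The median over all pairs was 35.9%.

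In CD4+ T cells the members differed between array numbers, which are among the differences by which their range was chosen. A probe set was called low or high in an array number if both its stimulated and its unstimulated array lay at least 1.5-fold from the mean of the other 2 arrays of the same genotype and condition, in the same direction; the centring cannot change this difference. In the arrays labelled N-ras KO 3, 26 of the 63 member probe sets were low (41.3%) and 1 was high, where 14.0% of all 45101 probe sets were low and 12.0% were high. In the arrays labelled WT 3 the picture was turned round, with 27 high (42.9%) and 1 low, where 14.2% of all probe sets were high and 10.0% low. These shares describe the values from which the genes were put forward. The other 549 numbered Zfp probe sets, from 291 genes, were 22.2% low and 18.4% high in N-ras KO 3, and 24.8% high and 14.8% low in WT 3, so that they went both ways where the members went mostly 1 way.

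**Figure D1:**
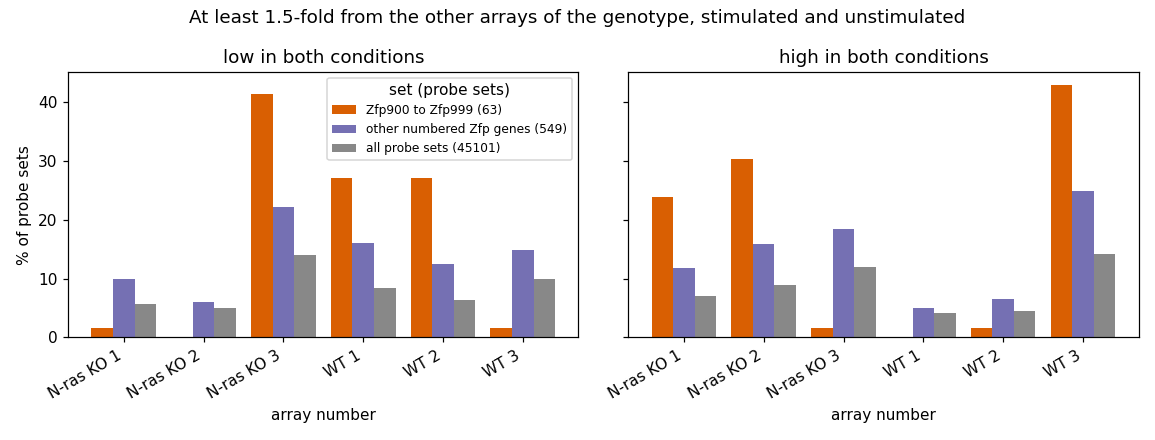
Share of probe sets at least 1.5-fold low (left) or high (right) in both conditions, by array number, for the 63 Zfp900 to Zfp999 probe sets, the other 549 numbered Zfp probe sets and all 45101. The members stand at 41.3% low in N-ras KO 3 and 42.9% high in WT 3.

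The same probe sets were often low in N-ras KO 3 and high in WT 3, namely 20 of the 63 (31.7%), where 9.02% of all probe sets and 16.2% of the other numbered Zfp probe sets were. In the opposite combination, high in N-ras KO 3 and low in WT 3, there were 0 of the 63, beside 2237 of all 45101. At least 4-fold low on the mean of both conditions in N-ras KO 3 were 15 of the 63 (background 3.7%, other numbered Zfp probe sets 10.2%), and at least 4-fold high in WT 3 were 14 (background 2.49%, other numbered Zfp probe sets 9.29%). Across the 63 member probe sets the deviations of N-ras KO 3 and WT 3 had a correlation of -0.83, beside -0.69 over all probe sets and -0.84 over the other numbered Zfp probe sets. Probe sets of 1 array share its RNA and labelling, so these correlations are descriptions.

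**Figure D2:**
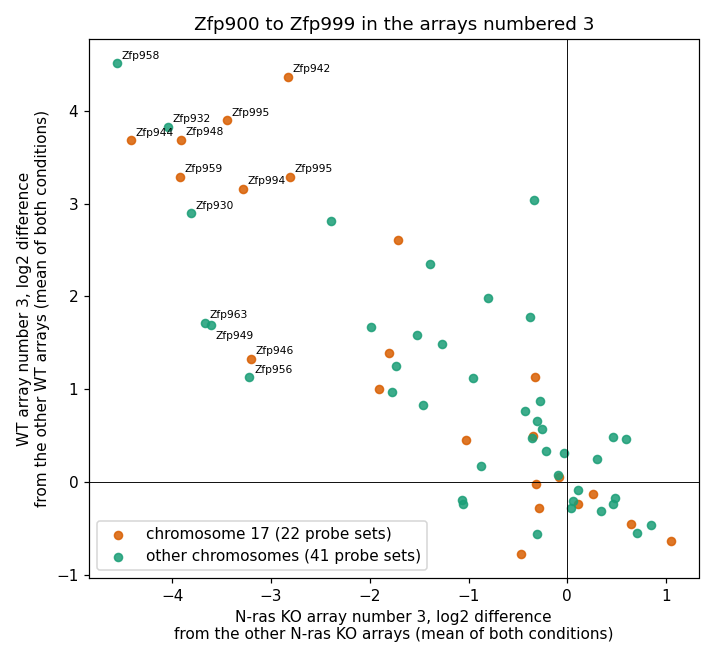
Log2 difference of the arrays labelled N-ras KO 3 (horizontal axis) and WT 3 (vertical axis) from the other arrays of their genotype, mean of the stimulated and unstimulated arrays, for 63 member probe sets. Most named points lie at the upper left, low in N-ras KO 3 and high in WT 3, with Zfp958 at -4.56 and 4.51.

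Zfp958, on chromosome 8, had the largest difference. Its stimulated arrays labelled N-ras KO 1, 2 and 3 read 0.00, 0.36 and -4.28 and the unstimulated ones 0.00, 0.61 and -4.37. The stimulated arrays labelled WT 1, 2 and 3 read -1.43, -0.31 and 3.75 and the unstimulated ones -1.33, 0.00 and 3.73. N-ras KO 3 thus lay 23.6-fold below the other N-ras KO arrays and WT 3 lay 22.8-fold above the other WT arrays, with stimulated and unstimulated arrays of a number close together. Zfp932, a repressor of endogenous retroviruses in mouse embryonic stem cells, followed the same pattern. N-ras KO 1 to 3 read -0.26, -0.09 and -4.52 with stimulation and 0.00, 0.16 and -3.66 without it. WT 1 to 3 read 0.79, -0.66 and 3.60 with stimulation and -0.58, 0.00 and 3.83 without it. The arrays numbered 3 lay at opposite ends, and all others lay between -0.66 and 0.79.

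Of the near copies on chromosome 17, Zfp942 was read by 3 probe sets and 1 of them moved. On that probe set (1455433_at) N-ras KO 1 to 3 read -0.75, 0.31 and -2.26 with stimulation and 0.00, 0.03 and -3.59 without it. WT 1 to 3 read -1.33, -0.57 and 3.71 with stimulation and -0.27, 0.00 and 3.94 without it. The other 2 Zfp942 probe sets lay at -0.32 and 0.27 in N-ras KO 3 and at -0.02 and -0.13 in WT 3, as log2 differences from the other arrays of the genotype (mean of both conditions). Zfp944 was likewise uneven. Its probe set 1437911_at read 0.31, 0.20 and -3.71 in the stimulated N-ras KO arrays and 0.42, 0.00 and -4.66 in the unstimulated ones. In WT arrays it read -3.71, -4.41 and 1.02 with stimulation and -3.42, 0.00 and 0.57 without it. Here the array labelled WT 2 was near WT 3 without stimulation and near WT 1 with it.

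The remaining leading probe sets showed the same 2 arrays apart. Zfp959, on chromosome 17, was at -5.68 with stimulation and -2.16 without in N-ras KO 3, against -0.36 to 0.21 in the other N-ras KO arrays, and at 2.39 and 2.42 in WT 3, against -1.45 to 0.00 in the other WT arrays. Zfp948 (1437696_at) lay at -3.92 in N-ras KO 3 and 3.69 in WT 3, as log2 differences from the other arrays of the genotype, mean of both conditions. On this measure both Zfp995 probe sets moved alike, one at -3.45 in N-ras KO 3 and 3.90 in WT 3 and the other at -2.81 and 3.29. Zfp930 (1434097_at) lay at -3.81 and 2.89, and Zfp994 at -3.28 and 3.16. Other members were as low in N-ras KO 3 but nearer to the other arrays in WT 3. These were Zfp963 at -3.67 in N-ras KO 3 and 1.72 in WT 3, Zfp949 (1458491_at) at -3.61 and 1.69, Zfp956 at -3.22 and 1.13, and Zfp946 at -3.20 and 1.33. Zfp982 had a probe set (1439065_x_at) at 3.03 in WT 3 and at -0.34 in N-ras KO 3, where its 2 conditions differed in sign.

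**Figure D3:**
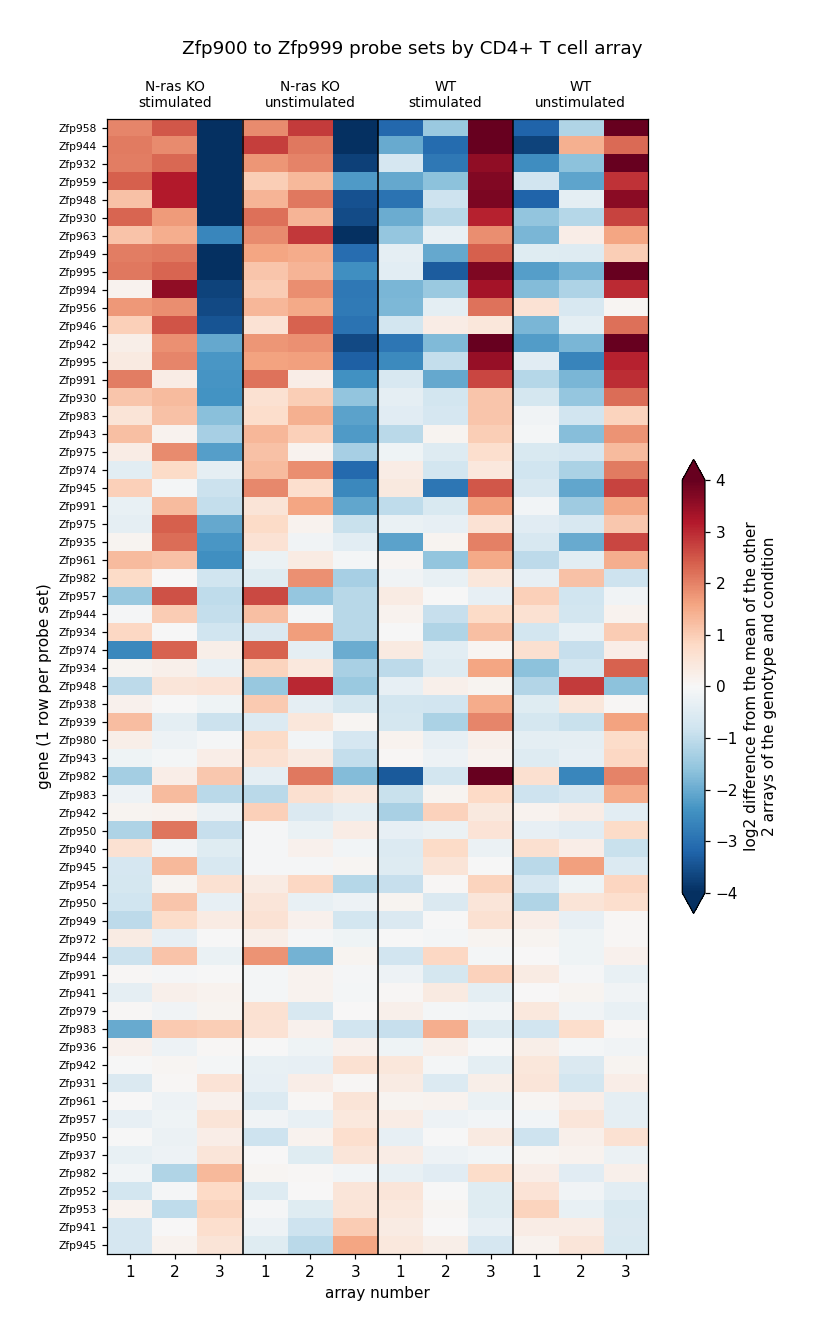
Log2 difference of each CD4+ T cell array from the mean of the other 2 arrays of its genotype and condition, 1 row per probe set (63) sorted by N-ras KO 3. Blue is lower and red is higher, with colours capped at 4; the columns numbered 3 stand out in opposite directions in N-ras KO and WT, in stimulated and unstimulated cells alike, and most rows near the bottom are pale in all columns.

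Other members lay close to 0 in all arrays. Zfp937 read -0.07, 0.00 and 0.45 in the stimulated N-ras KO arrays and 0.00, -0.33 and 0.32 in the unstimulated ones, and 0.09, -0.22 and -0.16 in the stimulated WT arrays and 0.00, 0.05 and -0.21 in the unstimulated ones. It shares the CCAATCAG word with Zfp958 and Zfp932. Over the members, the word was in 6 of 23 promoters (26.1%) of genes low in N-ras KO 3 on any probe set and in 9 of 19 promoters (47.4%) of the other genes. These promoters came from 3 of 18 genes and from 8 of 17 genes. By gene, 21 of 38 had a probe set low in N-ras KO 3, 22 had one high in WT 3, 18 had both (47.4%) and 13 had neither (34.2%). Over all 18194 genes 22.8% had a probe set low in N-ras KO 3, 22.9% had one high in WT 3, 16.3% had both and 70.6% had neither. Among genes with 1 probe set, 7 of 20 members were low in N-ras KO 3 and 8 were high in WT 3, where 14.7% and 15.1% of all 9182 such genes were and 27.5% and 26.8% of 142 such other numbered Zfp genes. Those with neither were Zfp931, Zfp936, Zfp937, Zfp938, Zfp940, Zfp941, Zfp950, Zfp952, Zfp953, Zfp972, Zfp974, Zfp979 and Zfp980. At the threshold in N-ras KO 3, the members just inside were Zfp934 at -0.81 and Zfp982 (1436386_x_at) at -0.79 in the weaker of the 2 conditions. Just outside were Zfp935 at -0.43 and Zfp974 (1441059_at) at -0.34, which lay at -2.34 and -3.12 in the other condition.

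The remaining array numbers separated the members less. Of the 63 probe sets, 15 were high (background 7.0%) and 1 low (background 5.68%) in N-ras KO 1. In N-ras KO 2, 19 were high (background 8.89%) and 0 low (background 4.96%). In WT 1, 17 were low (background 8.37%) and 0 high (background 4.15%). In WT 2, 17 were low (background 6.43%) and 1 high (background 4.42%). In any number and either direction, 38 of the 63 were called (60.3%), where 44.0% of all probe sets and 60.7% of the other numbered Zfp probe sets were. These calls rested largely on the arrays numbered 3, which serve as their comparators. Without N-ras KO 3, 2 member probe sets were high in N-ras KO 1 and 5 in N-ras KO 2, and without WT 3, 6 were low in WT 1 and 3 in WT 2. For the arrays numbered 3 themselves, leaving out 1 of the other numbers gave 23 to 24 low in N-ras KO 3 and 26 to 27 high in WT 3.

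The differences between array numbers were present with and without stimulation. The deviation of the stimulated array went with that of the unstimulated array of the same number across the 63 probe sets, with a correlation of 0.74 for N-ras KO 3 and 0.85 for WT 3. The other numbered Zfp probe sets gave 0.74 and 0.84, and all probe sets 0.63 and 0.74. Among the members the sign was the same for 48 of 63 in N-ras KO 3 and for 56 in WT 3. For the other numbers the correlation was 0.33 and 0.40 in N-ras KO 1 and 2 and 0.54 and 0.45 in WT 1 and 2. Within groups of 3 arrays, the median standard deviation of the members was 0.73 in stimulated and 0.77 in unstimulated N-ras KO cells and 0.55 and 0.59 in WT cells, where over all probe sets it was 0.42, 0.38, 0.35 and 0.37 and over the other numbered Zfp probe sets 0.56, 0.53, 0.49 and 0.50 in the same order.

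Of the 38 members, 11 lie on chromosome 17, with 22 probe sets, and 10 of these had a probe set low in N-ras KO 3 and 9 had one high in WT 3. The exception to both was Zfp952. Of all 839 measured genes on chromosome 17, 25.0% had one low in N-ras KO 3 and 25.9% one high in WT 3, and of the 31 other numbered Zfp genes there 58.1% each. Differences between chromosomes were not tested, and a gene with more probe sets has more chances of a call. On chromosome 8, 3 of 4 members were low in N-ras KO 3 and 4 were high in WT 3. On chromosome 7, with 10 probe sets, 1 of 7 was low in N-ras KO 3 and 3 were high in WT 3. The 3 members on chromosome 2 and the single members on chromosomes 10 and 19 had neither. Over all 18194 genes 22.8% were low in N-ras KO 3 and 22.9% high in WT 3. Shares over all genes of these chromosomes were not counted, so no difference between chromosomes is read from such small counts. Along chromosome 17, 19 protein-coding genes run from Zfp948 to Zfp945 in the RefSeq order, of which 13 were measured, 9 of them members. All 9 members there had a probe set low in N-ras KO 3 and 8 had one high in WT 3, Zfp946 being the other. Of the 4 interspersed genes of other numbers, Zfp760 (-1.66 in N-ras KO 3 and 1.14 in WT 3) and Zfp758 (-3.19 and 2.92) had both, and Zfp229 and Zfp820 had neither. The Zfp820 probe sets still lay at -1.63 and -0.85 in N-ras KO 3 and at 0.96 and 0.32 in WT 3, but were not past 1.5-fold in both conditions. Zfp229 lay at 0.25 and 0.31. Of the members, 0 lie on the chromosome of Nras. Zfp941 lies 21 protein-coding genes from Hras on chromosome 7, and its 2 probe sets stood at 0.85 and 0.04 in N-ras KO 3 and at -0.47 and -0.28 in WT 3.

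**Figure D4:**
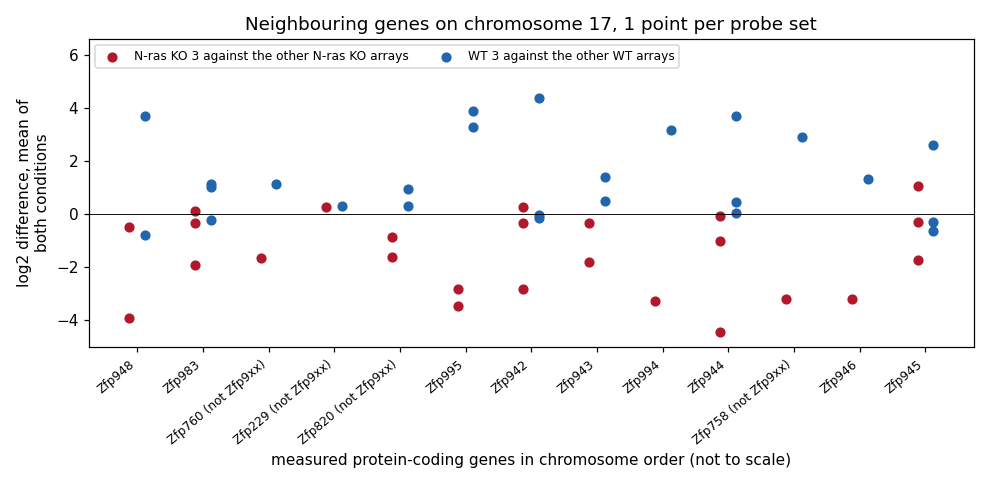
Measured genes of a zinc finger cluster on chromosome 17 in their order along the chromosome, with the log2 difference of N-ras KO 3 (red) and of WT 3 (blue) from the other arrays of the genotype, mean of both conditions, 1 point per probe set. All 9 members have a point below -0.585 in N-ras KO 3, and several also have probe sets near 0.

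Probe sets of 1 member often did not move together. Of 18 members with several probe sets, 3 had all of them low in N-ras KO 3 (Zfp930, Zfp975 and Zfp995), 4 had none and 11 had some. How often this occurs over all genes with several probe sets was not counted, so it is not a trait of the members. Zfp945 went both ways. Its probe set 1437128_a_at lay at -1.71 in N-ras KO 3 and 2.61 in WT 3, while 1437127_at lay at 1.05 and -0.64. For Zfp948 the second probe set (1459383_at) had 1 unstimulated array apart in each genotype, 3.00 above the other arrays in N-ras KO 2 and 2.81 above them in WT 2, where the stimulated arrays of these numbers differed by 0.48 and 0.22. Of the 63 probe sets, 7 were of a type that the maker marks as prone to cross-hybridize (_x_at), and which of the paralogs a probe set read was not tested.

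Sets of genes other than zinc finger genes also differed between the arrays numbered 3. Among 8 probe sets of CD4+ T cell markers, 3 were low in N-ras KO 3 (median -0.31, range -1.87 to 0.44) and 3 were high in WT 3 (median 0.45, range -0.36 to 1.45), with 0 in the opposite direction. Among 10 probe sets of B cell markers, 6 were high in N-ras KO 3 (median 1.09, range 0.01 to 3.08) and 6 in WT 3 (median 1.47, range -0.36 to 2.22). Of 8 neutrophil probe sets, 2 were low in N-ras KO 3 (median -0.95) and 3 high in WT 3 (median 0.41). Of 8 probe sets of immature thymocyte genes such as Rag1 and Dntt, 4 were high in N-ras KO 3 (median 1.52) and 5 low and 2 high in WT 3 (median -1.54). Of 3 NK cell probe sets, 1 was low in N-ras KO 3 (median -1.08) and 2 were high in WT 3 (median 0.96). Of 12 macrophage and dendritic cell probe sets, 2 were low and 1 high in N-ras KO 3 (median -0.19), and 3 were high in WT 3 (median -0.02). Of 6 CD8 T cell probe sets, 0 were called in N-ras KO 3 (median 0.51) and 3 were high in WT 3 (median 0.67). Whether other cells in the sort went with the zinc finger values was not tested, and fewer cells of a type and less RNA per cell cannot be told apart in such samples. Sex-linked genes differed between arrays as well. The 3 Xist probe sets were at -6.78 to -6.19 in N-ras KO 1 and at -6.97 to -5.43 in WT 1, relative to the other arrays of the genotype, and above 0 in all other numbers. The Y-linked Eif2s3y (1417210_at) was at 5.76, 1.86 and -7.62 in N-ras KO 1 to 3 and at 8.10, -3.61 and -4.49 in WT 1 to 3. The list of sex-linked genes, with 12 probe sets, joins Xist with Y-linked genes, so its counts mix both. In N-ras KO 3 and in WT 3, 8 were low and 3 high, and in WT 2, 5 were low and 3 high. N-ras KO 1 had 3 low and 8 high, N-ras KO 2 had 2 low and 4 high, and WT 1 had 3 low and 7 high. Over all probe sets 14.0% were low in N-ras KO 3, 10.0% in WT 3 and 6.43% in WT 2. The unstimulated arrays of Eif2s3y (1417210_at) read 7.85, 0.00 and -0.67 in WT 1 to 3, so WT 3 lay near WT 2 and WT 1 lay apart. In N-ras KO 1 to 3 they read 2.81, 0.00 and -6.23. The part of sex or of the labels in the zinc finger values was not tested.

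The partners of KRAB zinc finger proteins were compared as a list of 32 genes, 29 of them measured by 76 probe sets. In N-ras KO 3, 18 of these were low (23.7%) and 14 high (18.4%), and in WT 3, 9 were low (11.8%) and 15 high (19.7%), with medians of -0.001 in N-ras KO 3 and 0.047 in WT 3. Over all probe sets 14.0% were low and 12.0% high in N-ras KO 3, and 10.0% low and 14.2% high in WT 3. The probe sets of 1 partner could differ in direction here too. Dnmt1, the maintenance DNA methyltransferase, had probe sets at -1.03 and at 1.73 in N-ras KO 3, which lay at 0.49 and -1.77 in WT 3. Hdac1, a histone deacetylase, lay at -1.79 in N-ras KO 3 and 1.52 in WT 3, and Daxx lay the other way, at 1.06 and -1.38. The Trim28 probe sets lay at -1.12 and -0.93 in N-ras KO 3 and at 0.95 and 0.69 in WT 3. Those of Setdb1 differed in direction, at -1.68, 0.85 and -0.20 in N-ras KO 3 and at 0.81, -0.62 and 1.37 in WT 3. After stimulation, 2 probe sets of the list passed an unadjusted p of 0.05 and 1.5-fold upwards in N-ras KO cells and 3 in WT cells, and 0 passed downwards in either (limma). Of all probe sets, 1.16% passed upwards and 1.19% downwards in N-ras KO cells, and 0.53% and 0.51% in WT cells. One of them read Dnmt3a (1423064_at), a de novo DNA methyltransferase, at 0.78 in N-ras KO cells and 0.85 in WT cells on the log2 scale (adjusted p = 1 in both). The other 4 Dnmt3a probe sets did not pass, with responses from -0.21 to 0.46 in N-ras KO cells and from 0.01 to 0.24 in WT cells.

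The response to the TCR stimulus was tested for every probe set with limma, over all 12 arrays. With Benjamini-Hochberg adjustment over 45101 probe sets, 0 of the 63 members and 0 of all probe sets (background 0.0%) passed 0.05 in either genotype, while at an unadjusted p of 0.05 there were 1 member and 1162 probe sets in N-ras KO cells and 0 members and 520 probe sets in WT cells. At an unadjusted p of 0.05 and 1.5-fold, 1 member passed in N-ras KO cells, downwards, where 2.34% of all probe sets did (1.16% higher and 1.19% lower). In WT cells 0 members passed, where 1.04% did (0.53% higher and 0.51% lower). The median response of the members was -0.10 in N-ras KO cells and -0.13 in WT cells, beside 0.01 and 0.00 over all probe sets. With 1 array left out these medians ran from -0.48 to 0.16 in N-ras KO cells and from -0.39 to 0.09 in WT cells, so their sign changed. They were highest, and above 0, without the stimulated N-ras KO 3 and without the unstimulated WT 3, and lowest without the unstimulated N-ras KO 3 and without the stimulated WT 3. The 95% interval of a member's response reached a median of 1.31 to either side.

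The member past the unadjusted threshold was Zfp940, which has 1 probe set. Its stimulated N-ras KO arrays read -0.40, -0.88 and -1.14 and the unstimulated ones 0.00, 0.15 and -0.05, so the groups did not overlap, with a difference of -0.84 (standard error 0.32, unadjusted p = 0.0262, adjusted p = 1, limma). In WT cells the stimulated arrays read -0.87, 0.02 and -0.65 and the unstimulated ones 0.25, 0.00 and -0.77, which overlapped, with a difference of -0.33 (standard error 0.32). The next smallest p among members belonged to Zfp943 (1430727_at) in N-ras KO cells, at -0.63 (standard error 0.31, adjusted p = 1), and in WT cells to Zfp949 (1456518_at), at -0.68 (standard error 0.35, adjusted p = 1). Upwards, the smallest p belonged to Zfp950 (1438465_at) in N-ras KO cells, at 0.57 (standard error 0.51), and to Zfp942 (1454402_at) in WT cells, at 0.30 (standard error 0.25). With arrays of 1 number and genotype as a block, 3 members passed the unadjusted p and the fold in N-ras KO cells, all downwards, where 4.91% of all probe sets passed, and 4 in WT cells, 2 in each direction, where 2.8% passed. Of the members, 0 passed with adjustment. In that fit Zfp930 (1427518_at) was at -0.84 (standard error 0.29) in N-ras KO cells and 0.91 (standard error 0.29) in WT cells. Without the block its other probe set (1434097_at) was at -0.37 and -0.24. Opposite to the probe sets named above, without the block, were Zfp943 (1434625_at) at 0.41 and Zfp950 (1428748_at and 1436072_at) at -0.46 and -0.07 in N-ras KO cells. Zfp942 (1432887_at) was also opposite, at -0.43 in WT cells. With the block Zfp949 (1458491_at) went the same way, at -1.105 in WT cells.

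The response in N-ras KO cells minus that in WT cells passed the adjusted threshold for 0 members and 0 of all probe sets, and at an unadjusted p of 0.05 and 1.5-fold for 0 members, where 1.29% of all probe sets passed (0.627% higher and 0.665% lower). With the block, 2 members passed unadjusted, where 4.12% of all probe sets did. They were Zfp930 (1427518_at) at -1.76 and Zfp991 (1451477_at) at -1.16 (adjusted p = 0.961 for both).

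Stimulated N-ras KO minus stimulated WT values compare changes from the separate baselines of the genotypes and run opposite to the study's own comparison, which set WT against N-ras KO. The members ranged from -3.18 to 1.64, with a median of -0.05 beside 0.04 over all probe sets, and 30 were higher and 33 lower. At least 1.5-fold apart were 28 of the 63, 6 higher and 22 lower, where 25.8% of all probe sets were (11.9% higher and 13.8% lower). For Zfp930 (1427518_at) the stimulated N-ras KO arrays (-0.52, -0.41 and -2.85) all lay below the WT ones (1.15, 0.88 and 2.12). On its other probe set (1434097_at) the stimulated N-ras KO arrays (0.27, -0.15 and -3.99) and WT arrays (-0.805, -0.23 and 2.56) overlapped. How many of all probe sets did not overlap was not counted. The direction of the members as a set changed with the arrays numbered 3. Without N-ras KO 3 and WT 3, an omission chosen after the data had been seen, 28 members were again at least 1.5-fold apart, but 23 of them were higher and 5 lower in N-ras KO cells, where 28.3% of all probe sets were apart (6554 higher and 6188 lower). The values kept the centring on all 3 unstimulated arrays. For a probe set lowest in unstimulated N-ras KO 3, it puts unstimulated N-ras KO 1 and 2 at or above 0. For one highest in unstimulated WT 3, it puts unstimulated WT 1 and 2 at or below 0. The turn to higher therefore cannot be told apart from the centring. Without the stimulated N-ras KO 3 alone, 12 were higher and 12 lower, where 24.1% of all probe sets were apart (5370 higher and 5515 lower). Without the stimulated WT 3 alone, 16 were higher and 14 lower, where 24% of all probe sets were apart (5309 higher and 5515 lower).

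In thymocytes, with 1 array per genotype and no replicate, most members were near 0. N-ras KO minus WT was at least 1.5-fold for 3 of 21 probe sets, 1 higher and 2 lower, where 2.64% of all 22690 were (1.55% higher and 1.09% lower), and H-ras KO minus WT for 2 of 21, 1 higher and 1 lower, where 2.97% were (1.47% higher and 1.51% lower). H-ras KO minus N-ras KO was at least 1.5-fold for 4, 1 higher and 3 lower, where 2.42% were (1.04% higher and 1.38% lower). These comparisons share arrays. Zfp991, on chromosome 4, had 2 probe sets that disagreed. On 1424784_at the N-ras KO array read 1.83 and the H-ras KO array 0.00, against -0.42 in WT. On 1451477_at the N-ras KO array read -0.67 and the H-ras KO array 0.00, against 0.06 in WT. In CD4+ T cells both probe sets were low in N-ras KO 3, at -1.52 for 1424784_at and -2.39 for 1451477_at, and high in WT 3, at 1.59 and 2.82. Zfp982 (1439065_x_at), also on chromosome 4, read 0.00 in N-ras KO and -1.51 in H-ras KO thymocytes, against 1.57 in WT, so that H-ras KO minus WT was -3.08 and N-ras KO minus WT was -1.57. Zfp932 read 0.00 in N-ras KO and 0.33 in H-ras KO thymocytes, against -0.53 in WT.

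**Figure D5:**
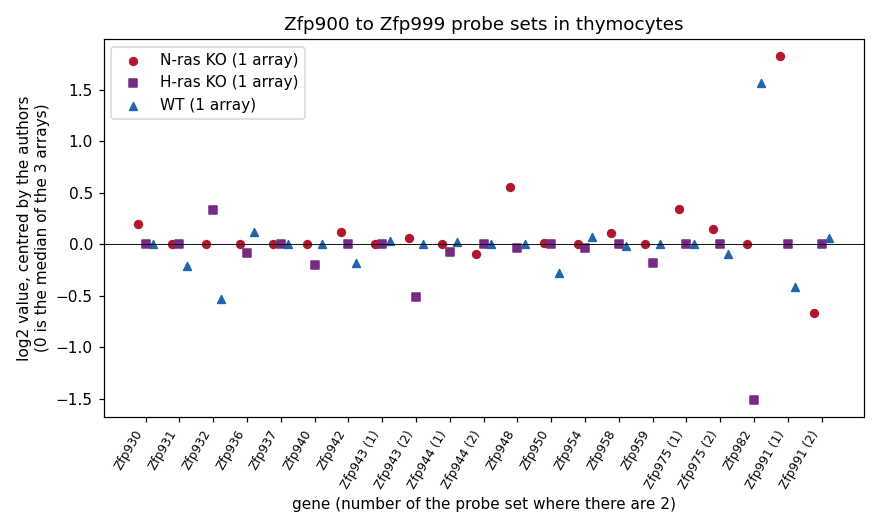
Centred log2 value of 21 member probe sets on the thymocyte arrays, 1 array each (red circles for N-ras KO, purple squares for H-ras KO, blue triangles for WT). The probe sets of Zfp982 and Zfp991 and that of Zfp932 are the ones at least 1.5-fold apart from WT.

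All 21 thymocyte probe sets were also on the CD4+ T cell arrays, and 12 of them were low in N-ras KO 3 there. Over these 12, the range between the 3 thymocyte arrays had a median of 0.32 (from 0.09 to 2.25), and for 8 it was under 1.5-fold. Zfp958, 23.6-fold apart in N-ras KO 3, read 0.11 in N-ras KO and 0.00 in H-ras KO thymocytes, against -0.01 in WT. Zfp959 read 0.00 in N-ras KO and -0.19 in H-ras KO thymocytes, against 0.00 in WT. Over all 21 members the median range was 0.21, and over all probe sets 0.10, with 5.12% of all probe sets reaching 1.5-fold between any 2 of the arrays. The neutrophil markers were lower in both knockouts here, with 7 of 8 probe sets at least 1.5-fold below WT in each, and their part in the zinc finger values was not tested.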

How the data were processed

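Values were those deposited by the authors, log2 expression per probe set made by RMA with quantile normalization in GeneSpring GX and centred on a median of arrays. The methods also describe amplification of samples with a low RNA yield, without naming the arrays. Probe sets with 1 annotated gene were assigned to it (34958 in CD4+ T cells and 20393 in thymocytes), and 7 further probe sets that list such a symbol beside other genes were left out. No filter on low values was possible. The members and lists were chosen with earlier results of these data known.

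Deviations were computed in Python 3.11.15 as an array minus the mean of the other 2 of its genotype and condition. Stimulation contrasts were fitted with limma 3.58.1 in R 4.3.3 over all 45101 probe sets and 12 arrays (lmFit and eBayes, two-sided, Benjamini-Hochberg), beside the methods' thresholds of an unadjusted p of 0.05 and 1.5-fold. For stimulated N-ras KO minus stimulated WT only counts past 1.5-fold and values are given, with no p. Unstimulated N-ras KO was not compared with WT, since the centring sets both medians to 0. Nothing shows that replicates came from separate cultures beyond the methods' account of mice, so p-values measure the spread between these arrays. Genes were named by the size of their deviation, their response, or disagreement between probe sets of 1 gene, and others are named to illustrate a count. Within a genotype, unstimulated and stimulated arrays of 1 number deviated together over all probe sets (r = 0.361, 0.394 and 0.626 in N-ras KO, 0.458, 0.447 and 0.738 in WT). Across genotypes the same numbers did not pair (r = -0.621 to -0.117). Fits were tested on simulated data. Alternatives covered the scaling, block, probe set choice, the methods' t-test and left-out arrays.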

Additional observations from a re-analysis of the deposited data

How the results depend on the processing

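With adjusted p, 0 members passed for either response or their difference in any setting tried. Counts of responses are member probe sets at an unadjusted p of 0.05 and 1.5-fold, and those of stimulated N-ras KO minus WT are past 1.5-fold alone. With array number as a block within genotype, the N-ras KO response gave 3, the WT response 4 and their difference 2, where 4.91%, 2.8% and 4.12% of all probe sets passed. A replicate block across genotypes left stimulated N-ras KO minus WT at 28, which was fixed in advance. Every number occurs in every group, so such a block cannot change the group differences. The correlations across genotypes gave no pairing there, and a block within genotype cannot be fitted for that contrast. Without N-ras KO 3 and WT 3, chosen after seeing the data, the counts were 2 for the N-ras KO response, 5 for the WT response and 5 for the difference of responses, where 3.85%, 2.95% and 3.67% of all probe sets passed, and stimulated N-ras KO minus WT stayed at 28 but turned from mostly lower to mostly higher. The centring still included the arrays left out, so that turn cannot be told apart from it. Leaving out single arrays gave 0 to 2 for each response, 24 to 34 for stimulated N-ras KO minus WT and 0 to 1 for the difference of responses. Only the groups of the contrast gave 1 for the WT response, where 1.46% of all probe sets passed. With 1 probe set per gene, 16 of 38 were apart for stimulated N-ras KO minus WT, where 25.3% of all were. Quantile normalization turned the median of stimulated N-ras KO minus WT over members to 0.06, against -0.05. For array numbers, 1 probe set per gene gave 16 low in N-ras KO 3, 15 high in WT 3, 9 high in N-ras KO 1, 10 low in WT 1 and 11 low in WT 2. A 2-fold threshold gave 8 in WT 1 and 9 in WT 2, and the mean of both conditions gave 31 in N-ras KO 2, 26 in WT 1 and 28 in WT 2. Leaving out 1 other number, also chosen after seeing the data, gave 23 to 24 in N-ras KO 3, 26 to 27 in WT 3, 2 to 23 in N-ras KO 1, 5 to 24 in N-ras KO 2, 6 to 27 in WT 1 and 3 to 26 in WT 2. In H-ras KO thymocytes a 2-fold threshold gave 1 and leaving out _x_at and _s_at probe sets gave 1. Of 104 alternatives for named probe sets 0 reversed and 4 moved, all in thymocytes under quantile normalization, to -1.23 and -2.61 for Zfp982 (N-ras KO and H-ras KO minus WT) and to 3.07 and -0.93 for the 2 Zfp991 probe sets. The cause of these changes was not tested. The number of arrays limits the precision.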
